A study of Mus musculus with 12 samples.

Results

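The respiratory chain genes were followed through 12 libraries of mouse naive CD4+ T cells from spleen and pLN, as the labels write it. Members were taken by symbol and gene type: protein-coding genes whose symbols begin with Ndufa, Ndufb, Ndufc, Ndufs, Ndufv, Uqcr, Atp5, mt- or Cox4 to Cox8, together with Sdha, Sdhb, Sdhc, Sdhd, Cycs and Cyc1. These are 109 of the 54232 genes in the count table (21983 of them protein coding), with 96 in the nuclear genome and 13 in the mitochondrial genome (symbols starting with mt-). The cells were Ddx55-KO (KO) or wild type (WT), and each genotype was sampled at 0, 8 and 24 h of stimulation by plate-bound anti-CD3 (5 ug/ml) with anti-CD28 (2.5 ug/ml), with 2 libraries in each of the 6 groups. Every group was described as purified naive CD4+ T cells, and markers of other cell types are given below. All groups except those at 0 h were taken after stimulation with both antibodies. For the mice, the age, strain, knockout allele and any Cre driver were not given in the sources used here. Ddx55 belongs to the DEAD-box helicases, which act on RNA, and the comparisons ask how its loss and T cell activation changed RNA levels. Nothing in the labels ties the replicates to different animals, so p-values measure only the spread between these samples, which may be technical.

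The respiratory chain sits in the inner mitochondrial membrane. Complexes I and II pass electrons from nutrients to ubiquinone, complex III hands them to cytochrome c, complex IV gives them to oxygen, and complex V, the ATP synthase, uses the resulting proton gradient to make ATP. Complexes I, III, IV and V are mosaics of subunits from both genomes, whereas complex II and cytochrome c are wholly nuclear. Mitochondrial genes are copied as long transcripts of the circular genome by their own polymerase, and naive T cells enlarge their mitochondrial mass and translate many mitochondrial proteins when they are activated.

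Values are CPM, a gene's counts relative to the size of its library, scaled with TMM factors, which give a gene's share of a library and not its amount per cell. In these bulk samples fewer cells of a type and less RNA per cell cannot be told apart. Called means a Benjamini-Hochberg adjusted p under 0.05 in edgeR's quasi-likelihood test over all 15679 genes that passed the filter on low counts. Of the members, 90 nuclear and 12 mitochondrial genes passed. The nuclear genes that did not pass were Cox6a2, Cox7b2, Cox8b, Cox8c, Ndufa4l2 and a second identifier of Atp5o, which held 0 counts, and among the mitochondrial genes it was mt-Atp8, with 0 to 4 counts per library. The Ndufa prefix also takes in Ndufaf1 to Ndufaf8, which are assembly factors and not subunits of complex I. Ndufa4 is counted here with complex IV, where its protein is now placed.

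Libraries held between 16810375 and 19126498 gene counts. Ddx55 itself stood at 14.7 and 14.5 CPM in KO cells at 24 h, against 52.9 and 55.2 CPM in WT cells, and it was lower in KO cells at all 3 times. T cell markers summed to between 1984.8 and 3889.6 CPM and no marker searched was at 0 in every library. Other cell types were represented unequally. The 5 basophil and mast cell markers summed to 140 and 524 CPM in the KO libraries at 24 h, against 4.31 and 3.68 CPM in the WT libraries, and all 5 were called higher. At 0 h the same sum was 259 and 711 CPM in KO libraries and 30.4 and 10.3 CPM in WT libraries, and the 6 neutrophil and granulocyte progenitor markers summed to 442 and 417 CPM in KO libraries and 50.2 and 10.2 CPM in WT libraries. The 5 naive T cell markers at 24 h summed to 3042 and 2352 CPM in KO libraries, against 1144 and 1339 CPM in WT libraries, with 3 called higher. The 5 CD8 T and NK cell markers summed to 62.5 and 53.2 CPM in KO libraries at 24 h, against 12.4 and 16.6 CPM in WT libraries, with 2 called higher. The part of these markers in the differences between KO and WT cells below was not tested.

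Of the mitochondrial genes, 6 had far fewer counts than the others, and 5 of these share nearly all their sequence with annotated transcripts of nuclear copies. For the other, mt-Atp8, no such transcript was found, but only annotated transcripts were searched. Of the 150-base stretches in mt-Co2, 99.4% also occurred in a transcript of another gene, and the values were 99.8% for mt-Co3, 99.4% for mt-Atp6, 98.0% for mt-Nd4l and 97.0% for mt-Nd3. The copies form a block of unprocessed pseudogenes on chromosome 1 of GRCm38. mt-Co1 shared 23.6% and mt-Nd4 59.2% of its stretches, and mt-Nd1, mt-Nd2, mt-Nd5, mt-Nd6, mt-Cytb and mt-Atp8 shared none with an annotated transcript. On chromosome 1 the copy of mt-Atp6 ends at 24614651 and that of mt-Co2 starts at 24614885. The bases between them, where a copy of mt-Atp8 could lie, were not searched. In a window chosen so that Gm28661 matched exactly and Gm13341 differed, the following 80 bases compare mt-Co2 with these nuclear copies. They are read 5′ to 3′ along the gene, from chrM:7224-7303 (plus strand), chr1:24615275-24615354 (minus strand) and chr2:22587672-22587751 (minus strand), and capitals mark bases that differ from mt-Co2.
mt-Co2: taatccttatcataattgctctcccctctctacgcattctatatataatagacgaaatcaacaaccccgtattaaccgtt
Gm28661: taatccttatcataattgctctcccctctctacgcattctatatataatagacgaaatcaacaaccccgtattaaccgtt
Gm13341: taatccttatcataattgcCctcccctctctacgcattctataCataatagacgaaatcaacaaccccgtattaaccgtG
The chromosome 1 copy had 0 differences from mt-Co2 in this window and the chromosome 2 copy had 3. mt-Co2 held 103 to 218 counts per library, Gm28661 118 to 229 and Gm13341 120 to 238, whereas mt-Co1 held 73346 to 140116. How reads with several matches were counted was not given in the sources used here. Levels were therefore not compared between mitochondrial genes, and the counts of mt-Co2, mt-Co3, mt-Atp6, mt-Nd3 and mt-Nd4l are uncertain. Among nuclear members the share was highest for Ndufb4 (29.3%) and Cycs (21.8%), apart from the empty second Atp5o identifier.

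**Figure D1:**
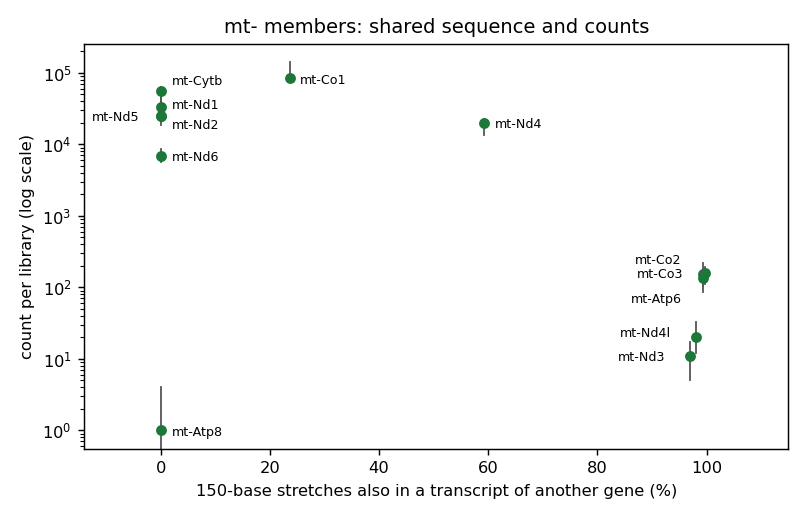
Counts of the 13 mitochondrial members against the share of their 150-base stretches found in another gene's transcript. Points are medians over the 12 libraries and lines run from the lowest to the highest library on a log axis (the lowest count of mt-Atp8 was 0). The 5 genes that share over 90% had at most 218 counts in any library. mt-Atp8, with no stretch found in another annotated transcript, had at most 4.

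Summed over all members, nuclear RNA was higher and mitochondrial RNA lower at the later times. The 96 nuclear members together made up 7933 and 6673 CPM in KO cells at 0 h, against 6795 and 6972 CPM in WT cells. At 8 h they made up 10377 and 8634 CPM in KO cells, against 10464 and 9852 CPM in WT cells, and at 24 h 10136 and 9778 CPM in KO cells, against 12082 and 12948 CPM in WT cells. The genotypes overlapped at 0 and 8 h and were apart at 24 h, with both KO libraries below both WT libraries. KO library 1 stood above the other 3 libraries of 0 h.

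The mitochondrial sum was lower in both KO libraries at each time. It was 16028 and 15703 CPM in KO cells at 0 h, against 17503 and 18149 CPM in WT cells. It was 14616 and 12707 CPM in KO cells at 8 h, against 15683 and 14883 CPM in WT cells, and 10966 and 10886 CPM in KO cells at 24 h, against 12954 and 14306 CPM in WT cells. The ratio of mitochondrial to nuclear counts was 2.02 and 2.35 in KO cells and 2.58 and 2.60 in WT cells at 0 h. It was 1.41 and 1.47 in KO cells and 1.499 and 1.511 in WT cells at 8 h, and 1.08 and 1.11 in KO cells and 1.07 and 1.10 in WT cells at 24 h. The ratio was lower in both KO libraries at 0 and 8 h and overlapped between genotypes at 24 h. That overlap depends on the genes counted: with mt-Nd1, mt-Nd2, mt-Nd5, mt-Nd6 and mt-Cytb alone, which share no stretch with other genes, the ratio at 24 h was 0.609 and 0.627 in KO cells and 0.639 and 0.669 in WT cells, with both KO libraries below both WT libraries.

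**Figure D2:**
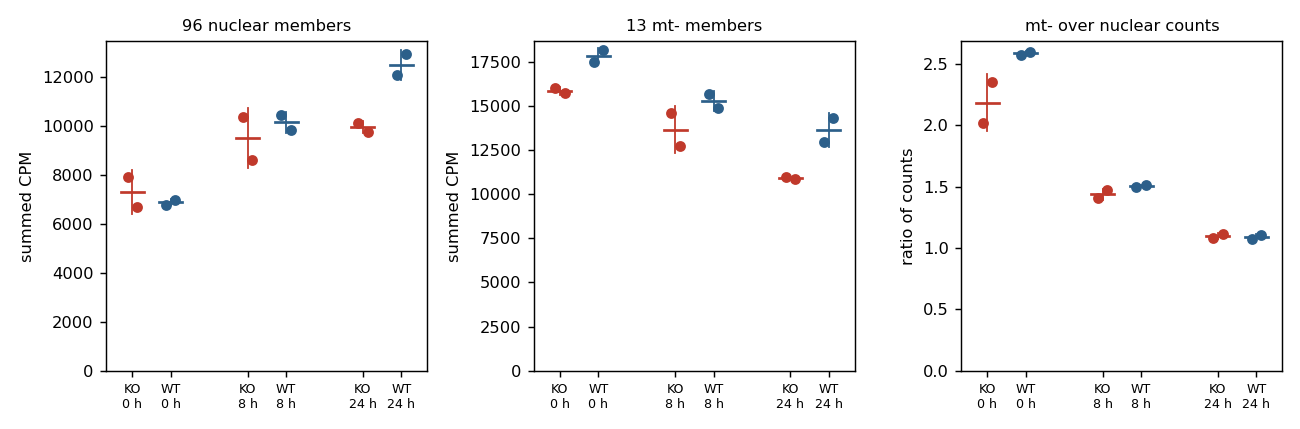
Summed CPM of the nuclear members (left), summed CPM of the mitochondrial members (middle) and the ratio of their counts (right) in KO and WT cells at 0, 8 and 24 h. Points are libraries, horizontal bars group means and vertical lines ± SD (n = 2). At 24 h both sums are lower in KO cells, and the ratios over all mitochondrial members overlap at 1.07 to 1.11.

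At 24 h the respiratory chain was broadly lower in KO cells. Of 90 nuclear members 42 were called lower and 3 higher, against 20.7% of all tested genes called lower and 17.9% called higher. The median log2 fold change was -0.28 over the nuclear members and 0.02 over all genes. In 64 of the 90 both KO libraries lay below both WT libraries, and in 9 above, where 35.5% of all tested genes lay below and 37.5% above. The number of nuclear members called, 45 in the main fit, was far lower without WT replicate 2 of 24 h and without KO replicate 2 of 24 h. Of 12 mitochondrial members 4 were called lower and 0 higher, with a median of -0.34, and 2 were called without WT replicate 2, KO replicate 1 or KO replicate 2 of 24 h.

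In complex I, 12 of 36 subunit genes were lower at 24 h and 1 was higher, with a median of -0.14. Ndufs6, an accessory subunit of the electron input arm, stood at 58.0 and 50.8 CPM in KO cells, against 76.4 and 89.3 CPM in WT cells (log2 fold change -0.61 ± 0.13 SE, adjusted p = 0.00168). Ndufa10 (-0.43) and Ndufb10 (-0.49) were also lower. Ndufa6, an accessory subunit that binds the acyl carrier protein, went against them, at 86.6 and 80.9 CPM in KO cells and 58.1 and 63.6 CPM in WT cells (0.46 ± 0.11, adjusted p = 0.00394). The other 23 were not called, among them Ndufa1 (-0.02, adjusted p = 0.905) and Ndufa7 (0.15, adjusted p = 0.403).

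The assembly factors of complex I included the most negative change among nuclear members. Ndufaf2, a factor needed late in assembly and related in sequence to the subunit Ndufa12, stood at 14.2 and 14.4 CPM in KO cells at 24 h, against 27.9 and 32.5 CPM in WT cells. Its log2 fold change was -1.08 ± 0.14 (adjusted p = 2.62e-05). Ndufaf1 (-0.73) and Ndufaf6 (-0.55) were lower as well. Ndufaf3 was higher, at 12.04 and 13.3 CPM in KO cells and 7.97 and 9.26 CPM in WT cells (0.55 ± 0.17, adjusted p = 0.0201). On the opposite strand Ndufaf2 overlaps Smim15 by 4727 bases (highest count 961) and Ndufaf3 overlaps Impdh2 by 48 bases (highest count 8935). These overlaps are between gene spans, introns included. The exons of Ndufaf2 cover 2978 bases, and the overlap of exons was not measured. Other members overlap genes of the opposite strand as well. Cox6c overlaps Vps13b by 5344 bases (highest count 2764), and Ndufs6 overlaps Mrpl36 by 30 bases (highest count 1249). The libraries were stranded, and with the strand setting of the counting not given in the sources used here, reads of these pairs may be mixed.

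Complex II, which also serves as succinate dehydrogenase of the citric acid cycle, had 3 of its 4 genes lower at 24 h. Sdhd, a membrane anchor subunit, stood at 80.1 and 80.1 CPM in KO cells, against 167 and 166 CPM in WT cells, and the groups were far apart (-1.06 ± 0.11, adjusted p = 2.28e-06). Sdha, the flavoprotein, was at 279 and 272 CPM in KO cells and 354 and 355 CPM in WT cells (-0.36 ± 0.09, adjusted p = 0.00368). The other anchor, Sdhc, was lower by less (-0.27, adjusted p = 0.048), and its call was lost under 10 of the alternatives. Sdhb, the iron-sulfur subunit, did not pass (-0.28, adjusted p = 0.0881). The anchors form a single membrane unit, yet Sdhd in KO cells was at 48.0% of the WT mean and Sdhc at 82.8%.

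In complex III, 5 of 9 genes were lower and 0 higher, with a median of -0.46. Uqcrb, a subunit near the ubiquinone site, stood at 43.7 and 37.6 CPM in KO cells and at 62.6 and 69.5 CPM in WT cells (-0.70 ± 0.11, adjusted p = 0.000112). Uqcrfs1, the Rieske iron-sulfur protein, was at 98.5 and 101 CPM in KO cells and 159 and 159 CPM in WT cells (-0.67 ± 0.11, adjusted p = 0.000241). Uqcr11 was lower too (-0.65). For Uqcrb and Uqcrfs1 both KO libraries lay below both WT libraries. Cytochrome c itself, Cycs, which also starts the caspase cascade when it leaves mitochondria, stood at 85.2 and 86.9 CPM in KO cells and 126 and 132 CPM in WT cells (-0.58 ± 0.11, adjusted p = 0.000728).

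Of 15 complex IV genes tested, 7 were lower and 1, Cox6b2, was higher. Ndufa4 stood at 109 and 105 CPM in KO cells and 150 and 178 CPM in WT cells (-0.62 ± 0.12, adjusted p = 0.00111). Cox6c (-0.54) and Cox7c (-0.40) followed. Cox4i1, the common isoform of subunit 4, was not called, at 246 and 237 CPM in KO cells and 250 and 259 CPM in WT cells (-0.08 ± 0.12, adjusted p = 0.64).

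Several subunits have paralogs that replace each other between tissues, and the common isoforms carried nearly all of the RNA. The following levels at 24 h are CPM per kilobase of exon, as mean ± SD with n = 2. Cox4i1 had 156 ± 4.42 in KO cells and 164 ± 4.11 in WT cells, and Cox4i2 had 0.827 ± 0.59 in KO cells and 0.513 ± 0.338 in WT cells. Cox6a1 had 207 ± 1.83 in KO cells and 239 ± 14.7 in WT cells, whereas Cox6a2, the isoform of heart and skeletal muscle, had 0.0797 in KO cells and 0 in WT cells. The Cox7a genes shared this pattern, with Cox7a2 at 97.1 ± 2.01 in KO cells and 126 ± 8.05 in WT cells and the muscle isoform Cox7a1 at 0.81 in KO cells and 0.656 in WT cells. Cox8a had 226 ± 8.02 in KO cells and 281 ± 24.0 in WT cells, and Cox8b and Cox8c had 0 in both. Ndufa4l2 had 0.0249 in KO cells and 0.0247 in WT cells, near that of a single count.

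Complex V had the highest share of genes called lower among complexes with more than 4 members, 11 of 16 with 0 higher and a median of -0.42. Atp5c1, the gamma subunit that forms the rotating shaft, stood at 132 and 132 CPM in KO cells and 211 and 236 CPM in WT cells (-0.75 ± 0.11, adjusted p = 7.97e-05). The genes Atp5g1, Atp5g2 and Atp5g3 encode the same mature ring subunit c with different import signals, and their values differed, though the difference between the genes was not tested. Atp5g3 stood at 243 and 232 CPM in KO cells and 354 and 377 CPM in WT cells (-0.62 ± 0.12, adjusted p = 0.000568). Atp5g2 was not called, at 0.15 ± 0.10 (adjusted p = 0.271), with 166 ± 1.78 CPM in KO cells and 149 ± 2.32 CPM in WT cells (SD, n = 2). Per kilobase of exon at 24 h, Atp5g1 had 28.4 CPM in KO cells and 34.3 CPM in WT cells, the lowest of the set. That rank rests on the length of all annotated exons, 4912 bases for Atp5g1, 1675 for Atp5g2 and 2181 for Atp5g3. In CPM without division by length, Atp5g1 stood above Atp5g2 in WT cells.

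**Figure D3:**
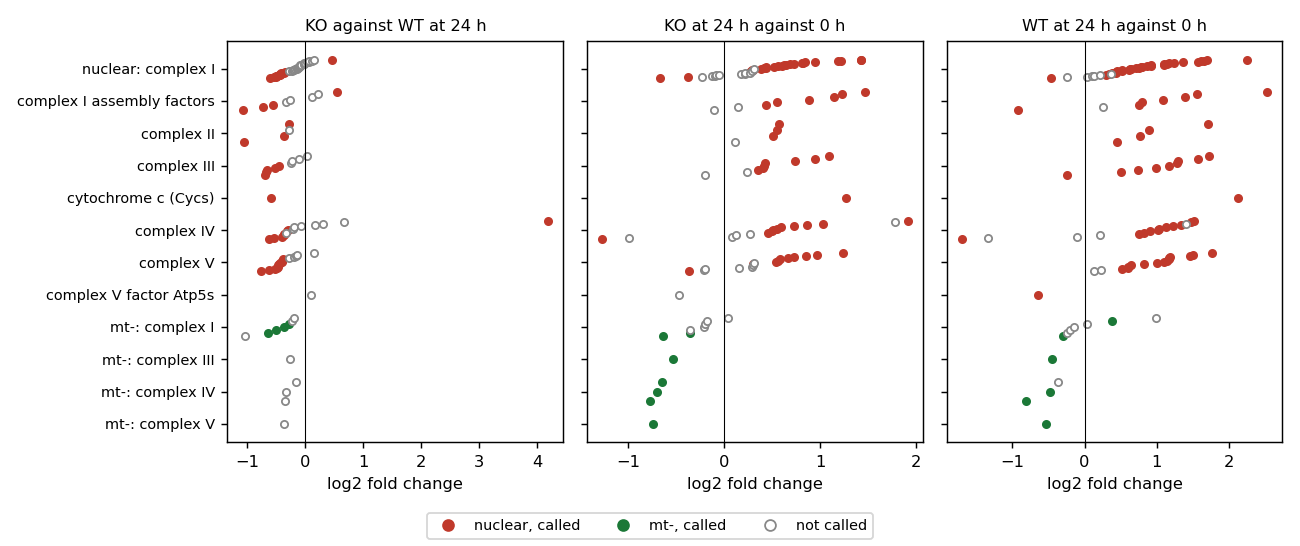
Log2 fold changes of the tested members by complex, for KO against WT cells at 24 h (left), KO cells at 24 h against 0 h (middle) and WT cells at 24 h against 0 h (right). Each point is a gene, filled where the adjusted p was under 0.05. The left panel shows 42 nuclear genes lower and 3 higher, with Cox6b2 at 4.18, and the other panels show nuclear genes mostly to the right of 0 and mitochondrial genes mostly to the left.

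Cox6b2 was the only member called at all 3 times in KO against WT cells. It encodes an isoform of the complex IV subunit 6b that is known from testis, whereas Cox6b1 is the isoform of most tissues. Cox6b2 had 96 and 83 counts in KO cells at 0 h, against 19 and 16 counts in WT cells. At 8 h it had 35 and 39 counts in KO cells, against 14 and 11 in WT cells, and at 24 h 351 and 305 counts in KO cells, against 16 and 20 in WT cells. In CPM per kilobase of exon it reached 16.1 ± 1.71 in KO cells at 24 h, still below Cox6b1 at 199 ± 11.2 in the same cells; in WT cells the values were 0.878 ± 0.14 and 249 ± 19.7 (SD, n = 2).

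The log2 fold change of Cox6b2 was 2.17 ± 0.27 at 0 h, with an adjusted p of 0.000297. At 8 h it was 1.53 ± 0.30, with an adjusted p of 0.0127, and at 24 h 4.18 ± 0.26, with an adjusted p of 1.31e-08. The 8 h call was lost without either WT library of 8 h, without KO replicate 2 of 8 h, and when only the 4 libraries of 8 h were fitted. Cox6b2 overlaps no annotated gene and shares none of its 150-base stretches with another transcript. At 24 h the basophil and mast cell markers summed to 140 and 524 CPM in the KO libraries in which Cox6b2 had 19.1 and 16.4 CPM, and their part in the Cox6b2 difference was not tested. At 0 and 8 h Cox6b2 was 1 of 90 nuclear members called higher, against 4.63% and 1.9% of all tested genes. At 0 h, 7 nuclear members were called without KO replicate 2 of 0 h, 3 without KO replicate 2 of 8 h and 2 without KO replicate 1 of 8 h.

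Before 24 h the other members showed no called difference between genotypes. By edgeR 0 mitochondrial members were called at 0 h and 0 at 8 h, with 1 and 2 at an unadjusted p under 0.05, while DESeq2 called 1 at 0 h and 0 at 8 h. The nuclear median was 0.10 at 0 h and -0.08 at 8 h, and the mitochondrial median was -0.14 and -0.20. At 0 h both KO libraries lay above both WT libraries in 23 of 90 nuclear members and below in 2, where 19.7% of all tested genes lay above and 23.4% below. At 8 h they lay above in 5 and below in 19, where 22.1% of all tested genes lay above and 21.4% below. The nuclear counts above at 0 h and below at 8 h were thus near the shares over all genes. Those below at 0 h (2.22%) and above at 8 h (5.56%) were under them. Of the 90 nuclear values, 73 were above 0 at 0 h and 72 below 0 at 8 h. Of the 12 mitochondrial members, 5 at 0 h, 7 at 8 h and 11 at 24 h had both KO libraries below both WT libraries, and none had them above. Over all tested genes the share below was 23.4% at 0 h, 21.4% at 8 h and 35.5% at 24 h.

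**Figure D4:**
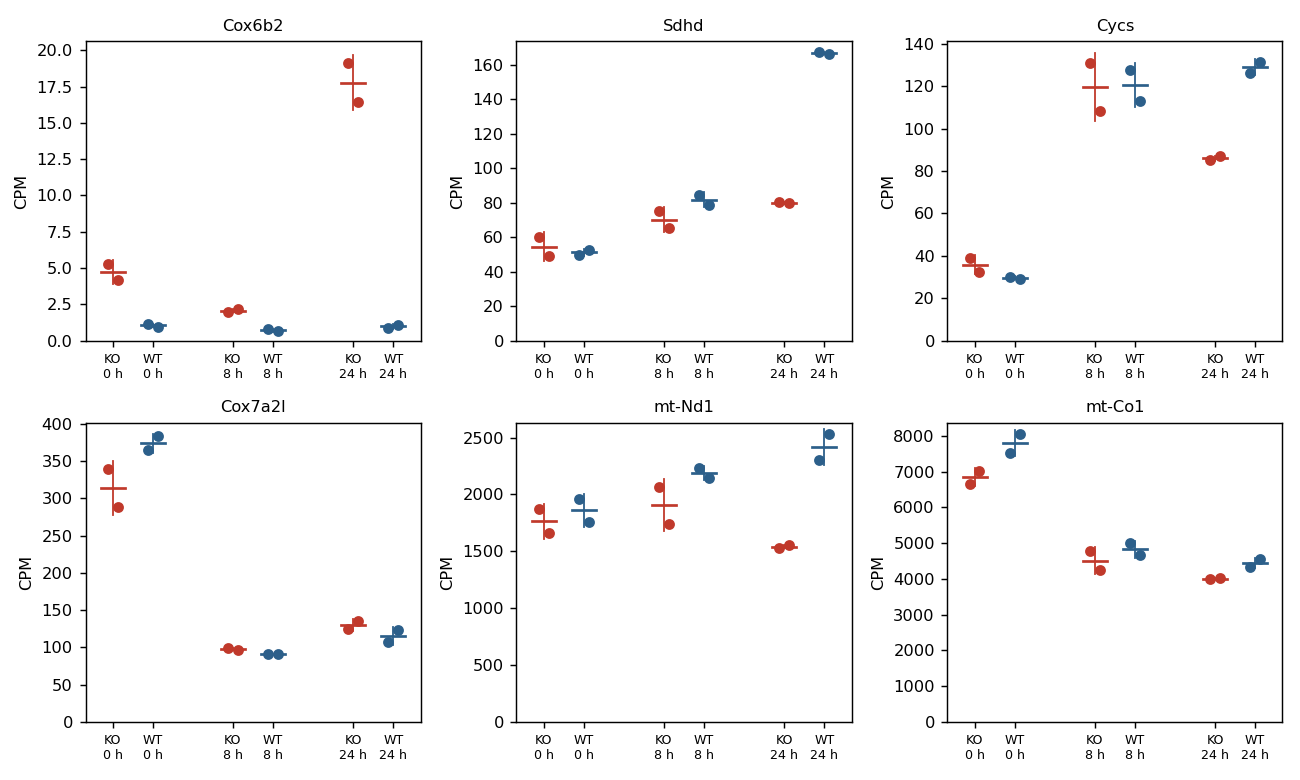
CPM of 6 members in KO and WT cells at 0, 8 and 24 h, with libraries as points, group means as horizontal bars and ± SD as vertical lines (n = 2). Cox6b2 reaches 16.4 and 19.1 CPM in KO cells at 24 h, and Sdhd reaches 166 and 167 CPM in WT cells at 24 h against 80.1 CPM in KO cells.

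Most nuclear members were higher after activation in both genotypes. In KO cells 52 of 90 rose and 13 fell by 8 h (28.6% and 32.9% of all tested genes), and 58 rose and 4 fell by 24 h (30.3% and 29.2% of all tested genes), with medians of 0.39 and 0.45. In WT cells 60 of 90 rose and 8 fell by 8 h (28.3% and 33.6% of all tested genes), and 72 rose and 5 fell by 24 h (33.0% and 33.6% of all tested genes), with medians of 0.62 and 0.85. The all-gene medians were -0.10 and -0.01 in KO cells and -0.15 and -0.09 in WT cells. The comparisons at 8 and 24 h share the libraries of 0 h within each genotype. Of the 72 genes that rose in WT cells by 24 h, 57 were also among the 58 that rose in KO cells.

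Cycs and a few subunits and assembly factors rose most. Cycs stood in KO cells at 38.9 and 32.5 CPM at 0 h, 131 and 108 CPM at 8 h, and 85.2 and 86.9 CPM at 24 h (1.27 ± 0.12 at 24 h, adjusted p = 2.18e-07). In WT cells it stood at 30.1 and 29.1 CPM at 0 h, 128 and 113 CPM at 8 h, and 126 and 132 CPM at 24 h (2.12 ± 0.12 at 24 h, adjusted p = 7.55e-10). The genotypes overlapped at 8 h and separated at 24 h. Ndufa12, a subunit that joins late in assembly, rose by 1.43 on the log2 scale by 24 h in KO cells and to 104 and 108 CPM in WT cells, against 21.9 and 23.0 CPM at 0 h (2.24 ± 0.12, adjusted p = 6.94e-10).

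Assembly factors did not share a time course. Ndufaf2 rose by 1.35 by 8 h and by 1.22 by 24 h in KO cells, and by 1.81 and 2.53 in WT cells. Ndufaf4 stood in KO cells at 31.6 and 26.5 CPM at 0 h, 121 and 96.7 CPM at 8 h and 79.3 and 81.8 CPM at 24 h. In WT cells it stood at 27.5 and 29.3 CPM at 0 h, 111 and 112 CPM at 8 h and 75.5 and 73.0 CPM at 24 h. Both genotypes thus had their highest Ndufaf4 level at 8 h. In complex V, Atp5g1 rose by 1.91 by 8 h and 1.77 by 24 h in WT cells, and Atp5b, the catalytic beta subunit, by 1.22 and 1.46. Sdhd rose by 0.36 by 8 h and 0.56 by 24 h in KO cells, and by 0.67 and 1.71 in WT cells.

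A small set fell on activation. Cox7a2l, a supercomplex assembly factor related to the complex IV subunit Cox7a2, stood in KO cells at 339.5 and 288 CPM at 0 h, 98.6 and 96.6 CPM at 8 h and 125 and 135 CPM at 24 h (-1.69 ± 0.10 at 8 h, adjusted p = 2.75e-09). In WT cells it stood at 365 and 383 CPM at 0 h, 91.0 and 91.2 CPM at 8 h and 107 and 123 CPM at 24 h (-2.04 ± 0.11 at 8 h, adjusted p = 3.8e-10). Its paralog Cox7a2 rose by 1.23 in WT cells by 24 h, so these related genes moved in opposite directions. In KO cells the 4 genes that fell by 24 h were Cox7a2l (-1.27), Ndufv3 (-0.67), Ndufb10 (-0.38) and Atp5h (-0.37). The calls of Ndufb10 and Atp5h were lost under 3 and 2 of the alternatives. In WT cells the 5 that fell by 24 h were Cox7a2l (-1.70), Ndufaf3 (-0.93), Atp5s (-0.65), Ndufa6 (-0.46) and Uqcrh (-0.24). The calls of Uqcrh, Atp5s and Ndufa6 were lost under 14, 8 and 1 of the alternatives. Ndufv3, an accessory subunit of the electron input module, fell by 1.27 on the log2 scale by 8 h in KO cells and by 1.17 in WT cells. Ndufb10 fell by 0.97 by 8 h in KO cells and by 0.74 in WT cells, and Atp5s, a factor associated with complex V, by 1.18 in KO cells and 0.91 in WT cells. Sdha fell by 0.28 by 8 h in KO cells, a call lost under 5 of the alternatives.

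The difference between KO and WT cells itself changed between 0 and 24 h for many nuclear members. By this interaction test 37 of 90 were called lower and 3 higher, against 14.8% and 11.9% of all tested genes, with a median of -0.43. The number of nuclear members called, 40 in the main fit, was far lower without either WT library of 0 h. It was also far lower without WT replicate 2 of 24 h or KO replicate 2 of 24 h. Complex V held 12 of the 37 genes called lower among its 16. Ndufaf2 (-1.31), Sdhd (-1.15) and Uqcrb (-1.06) had the most negative values among those named. Cox6b2 (2.01), Ndufaf3 (0.82) and Cox7a2l (0.43) were the 3 higher. The call of Cox7a2l was lost under 11 of the alternatives and that of Ndufaf3 under 5. Between 0 and 8 h, 0 nuclear and 0 mitochondrial members were called by edgeR, against 0.995% of all tested genes. At an unadjusted p under 0.05 there were 10 nuclear and 0 mitochondrial members, and DESeq2 called 0 of either.

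In KO cells 7 of 12 mitochondrial members fell by 24 h and 2 by 8 h, against 29.2% and 32.9% of all tested genes, and none rose. The 7 include mt-Co2, mt-Co3 and mt-Atp6, whose counts are uncertain because of their nuclear copies. The 2 include mt-Co2, and that call was lost under 14 of the alternatives. mt-Co1 stood at 3995 and 4009 CPM in KO cells at 24 h, against 6660 and 7025 CPM at 0 h (-0.77 ± 0.11, adjusted p = 2.1e-05), and the difference of this change from that in WT cells was 0.04 ± 0.15 (adjusted p = 0.898). mt-Nd1 stood at 1531 and 1551 CPM in KO cells at 24 h, against 1872 and 1656 CPM at 0 h, and was not called. Between genotypes at 24 h mt-Nd1 was lower in KO cells, at -0.65 ± 0.12 (adjusted p = 0.000428), and the change of this difference from 0 h, -0.57 ± 0.16, was called as well (adjusted p = 0.0171). That call was lost without WT replicate 2 of 0 h, WT replicate 2 of 24 h, or either KO library of 24 h.

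In WT cells the mitochondrial genes did not follow a single course. By 24 h 5 of 12 fell and 1 rose in WT cells, and by 8 h 1 fell, against 33.6% of all tested genes that fell at either time and 33.0% that rose by 24 h. The count that fell by 24 h was near that share. It includes mt-Co3 and mt-Atp6, whose counts are uncertain because of their nuclear copies. Their calls were lost under 5 and 8 of the alternatives, and that of mt-Nd4 under 12. The number of mitochondrial members called by 24 h, 6 in the main fit, was lower without WT replicate 1 of 24 h and without WT replicate 2 of 0 h. mt-Co1, a catalytic core subunit of complex IV, stood at 4344 and 4552 CPM in WT cells at 24 h, against 7533 and 8055 CPM at 0 h (-0.81 ± 0.11, adjusted p = 9.9e-06). mt-Nd1, a membrane subunit of complex I, stood at 2302 and 2531 CPM at 24 h, against 1962 and 1757 CPM at 0 h, and rose by 0.38 ± 0.12 (adjusted p = 0.00933). mt-Cytb, the cytochrome b of complex III, fell by 0.44 on the log2 scale, and mt-Nd2 had 0.03. The share of mt-Co1 in all mitochondrial member counts was 33.5% and 31.8% in WT cells at 24 h and 43.0% and 44.4% at 0 h, and the share of mt-Nd1 was 17.8% and 17.7% at 24 h and 11.2% and 9.7% at 0 h.

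The other mitochondrial genes called lower in KO cells at 24 h also encode complex I subunits, as do 7 of the 12 genes tested. All 12 had log2 fold changes below 0, with medians of -0.36 for complex I and -0.33 for complex IV. The value was -0.27 for complex III and -0.37 for complex V, each with 1 gene tested. mt-Nd2 stood at 1027 and 1003 CPM in KO cells and 1359 and 1534 CPM in WT cells (-0.51 ± 0.11, adjusted p = 0.00212). mt-Nd4 (-0.36, adjusted p = 0.0309) and mt-Nd5 (-0.29, adjusted p = 0.0293) were lower too, and mt-Nd4 shares 59.2% of its stretches with a nuclear copy. The calls of mt-Nd4 and mt-Nd5 were lost under 3 and 4 of the alternatives. mt-Cytb (-0.27, adjusted p = 0.0786), mt-Nd6 (-0.19, adjusted p = 0.312), the gene of the opposite strand, and mt-Co1 (-0.15, adjusted p = 0.292) did not pass. For the genes that share nearly all their stretches, mt-Nd3 had 5 and 11 counts in KO cells and 17 and 16 in WT cells at 24 h, mt-Co2 137 and 103 in KO cells and 138 and 169 in WT cells, and mt-Atp6 86 and 100 in KO cells and 109 and 132 in WT cells. mt-Co3 had 113 and 119 counts in KO cells and 149 and 143 in WT cells, and mt-Nd4l 19 and 16 in KO cells and 20 and 21 in WT cells. None of these 5 was called between genotypes. Whether these genes differ from mt-Nd1 in their change was not tested.

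**Figure D5:**
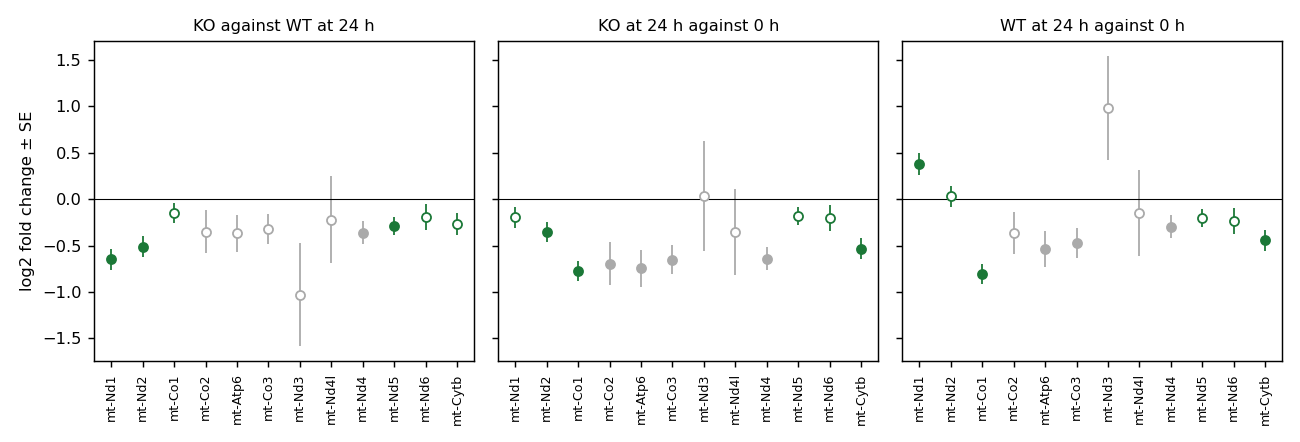
Log2 fold changes ± SE of the 12 tested mitochondrial members in their order along the mitochondrial genome, for KO against WT cells at 24 h (left), KO cells at 24 h against 0 h (middle) and WT cells at 24 h against 0 h (right). Filled points were called, and grey points share over 50% of their stretches with other genes. mt-Nd1 and mt-Nd2, at the start of the order, have -0.65 and -0.51 on the left, and mt-Co1 has -0.77 and -0.81 in the middle and right panels.

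Promoters of the nuclear members were searched for short motifs of regulators known for respiratory genes. RefSeq windows of 300 bases (250 before to 50 after the start, GRCm38.p6) were found for 75 of 95 nuclear symbols, and both strands were read. The NRF1 letters TGCGCATGC, whose reverse complement can overlap them within a site, were in a window of 8.0% of these members, against 1.7% of all 27025 genes with a window. The ETS letters CCGGAAG, bound by the GABPA family, were found for 24.0% against 9.9%, and the YY1 letters AAGATGGCG for 10.7% against 1.6%. The windows of 4 members described above are given in part, each the 150 bases before the start, 5′ to 3′ along the gene, with motif letters in capitals. They are chr7:4753095-4753244 (Cox6b2, minus strand), chr9:50603850-50603999 (Sdhd, minus), chr15:82354292-82354441 (Ndufa6, minus) and chr4:24897933-24898082 (Ndufaf4, plus).
Cox6b2: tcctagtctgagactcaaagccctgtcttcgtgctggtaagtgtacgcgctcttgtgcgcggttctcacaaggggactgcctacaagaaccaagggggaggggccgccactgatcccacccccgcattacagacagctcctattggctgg
Sdhd: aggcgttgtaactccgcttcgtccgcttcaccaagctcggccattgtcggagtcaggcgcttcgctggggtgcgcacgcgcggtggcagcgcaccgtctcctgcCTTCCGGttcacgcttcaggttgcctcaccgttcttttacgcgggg
Ndufa6: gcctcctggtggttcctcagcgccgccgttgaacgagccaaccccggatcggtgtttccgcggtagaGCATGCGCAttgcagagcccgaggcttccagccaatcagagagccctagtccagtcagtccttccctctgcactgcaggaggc
Ndufaf4: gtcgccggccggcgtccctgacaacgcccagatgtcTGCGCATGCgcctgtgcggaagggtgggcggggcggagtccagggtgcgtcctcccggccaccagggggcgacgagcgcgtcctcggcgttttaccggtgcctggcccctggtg
Sdhd, lower in KO cells, holds ETS letters on the reverse strand, first base at -46 from the start. Ndufa6, higher in KO cells, holds NRF1 letters on the reverse strand, first base at -83, and Ndufaf4, which was not called between genotypes at 24 h, holds NRF1 letters at -114 and again at 1, past the printed stretch. Cox6b2 holds none of the motifs in its window. A match is a description of the letters and not a binding site.

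Genes that act around the respiratory chain were read from lists of their own, beside 20.7% of all tested genes called lower and 17.9% called higher in KO cells at 24 h. The list of citric acid cycle enzymes also holds Dlat, a subunit of pyruvate dehydrogenase, which is not an enzyme of the cycle itself. At 24 h in KO against WT cells, 12 of the 17 genes on this list were called lower and 0 higher, with a median of -0.48. Idh2 (-1.23 ± 0.11, adjusted p = 6.91e-07), the mitochondrial NADP-dependent isocitrate dehydrogenase, and Idh3a (-0.99 ± 0.09, adjusted p = 4.29e-07), a subunit of the NAD-dependent enzyme, were among them, as was Suclg2 (adjusted p = 8.11e-06), a subunit of succinyl-CoA ligase. Of 22 import and outer membrane genes, 11 were lower and 0 higher, with the channel gene Vdac1 at -0.90 ± 0.10 (adjusted p = 4.21e-06), Tomm34 at -0.76 and Vdac2 at -0.57. Of 12 genes for coenzyme Q and cytochrome heme, 5 were lower and 0 higher, with Coq7, a hydroxylase of coenzyme Q synthesis, at -1.51 ± 0.15 (adjusted p = 2.25e-06), Pdss1 at -0.74 and Coq6 at -0.55.

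Of 18 genes for mitochondrial transcription and DNA maintenance, 6 were lower and 1 higher at 24 h, against 20.7% and 17.9% of all tested genes. Tfam, which packages and activates the mitochondrial genome, stood at 66.1 and 63.9 CPM in KO cells and 99.7 and 98.5 CPM in WT cells (-0.61 ± 0.10, adjusted p = 0.000145). Endog (-1.39) and Mgme1 (-1.28), nucleases of mitochondria, were lower. Polrmt, the mitochondrial RNA polymerase, had 64.6 and 63.9 CPM in KO cells and 65.6 and 64.6 CPM in WT cells. Of 18 genes for mitochondrial mRNA processing and stability, 8 were lower and 0 higher, with Fastkd3 at -1.06 ± 0.13 (adjusted p = 1.94e-05) and Grsf1, an RNA granule protein, at -0.64 ± 0.09 (adjusted p = 4e-05). Pnpt1, a mitochondrial exoribonuclease, had -0.51.

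Of 10 regulators tested, 3 were higher and 2 lower at 24 h, against 17.9% and 20.7% of all tested genes, so the number lower was no more than that share. Ppargc1b, a coactivator of mitochondrial biogenesis, stood at 4.52 and 3.83 CPM in KO cells and 13.3 and 11.4 CPM in WT cells (-1.56 ± 0.18, adjusted p = 8.15e-06). Gabpb1, a partner of GABPA, was higher in KO cells (0.44 ± 0.10, adjusted p = 0.00299), and Tfeb was lower (-0.69). Of 43 assembly factors outside the membership rule, 9 were lower and 4 higher. The number lower was near the 20.7% of all tested genes, and the number higher was below their 17.9%. Among those lower were Cmc2, a complex IV factor, at -1.70 ± 0.20 (adjusted p = 1.29e-05) and Acad9, a complex I factor, at -0.77 ± 0.11 (adjusted p = 6.38e-05), and Nubpl, also a complex I factor, at -1.03.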

How the data were processed

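Per the labels' protocols, stranded libraries for paired reads were made from total RNA after removal of rRNA. The submitters' processing notes name fastp 0.12.4, STAR 2.7.1a and mm10 without their roles. The deposited gene table holds raw counts, whole numbers per gene and library, without normalization by the authors. Its counter, annotation and any use of UMIs were not given in the sources used here. The deposited counts of repeat loci were not used here.

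The column names match the 12 samples' labels. Genes were filtered with filterByExpr (minimum count 10, minimum total 15), and 15679 of 54232 were tested in 1 fit of edgeR 4.0.16 in R 4.3.3, with TMM factors, a mean for each of the 6 groups and 6 residual df. Tests were two-sided, with Benjamini-Hochberg adjustment over all tested genes. The procedure was also run on simulated counts, which lacked the differences between times seen here, and no result here rests on that run. SE is the size of the log2 fold change divided by the root of F. Symbols, gene types and coordinates are from GENCODE M21 (GRCm38), and promoters and their sequences from RefSeq (GRCm38.p6). Depth, 16810375 to 19126498 counts per library, sets the counting precision.

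Members, lists and alternatives were chosen with earlier results of these data known. Genes were named by rule: all mitochondrial members, paralogs that replace each other, up to 3 called members per complex and direction with the smallest p, members called against the main direction, and up to 3 genes per list. Not every gene the rule admits is printed, and Ndufa1, Ndufa7 and Polrmt were chosen after their values were seen. Alternatives were RLE size factors, DESeq2 1.42.0, other filters, library sizes without mitochondrial genes, replicate blocks, fits of single times and leaving out each library.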

Additional observations from a re-analysis of the deposited data

Results flagged for a closer look

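The difference between KO and WT cells changed from 0 h to 24 h for 40 of 90 nuclear members and for 1 of 12 mitochondrial members. These were called by the interaction test of the edgeR fit with adjusted p under 0.05. Of the nuclear members 37 were lower and 3 higher, against 14.8% and 11.9% of all tested genes. The 1 mitochondrial member was lower, and its share of 8.3% was below the 14.8% of all tested genes. In complex I the log2 change of the difference was -0.81 for Ndufa12, -0.74 for Ndufa5 and -0.71 for Ndufs6. Among its assembly factors it was -1.31 for Ndufaf2, and -0.65 for Ndufaf1 and 0.82 for Ndufaf3, whose calls were each lost under 5 of the alternatives. It was -1.15 for Sdhd of complex II. In complex III it was -1.06 for Uqcrb, -0.85 for Uqcr11 and -0.64 for Uqcrfs1, and for Cycs it was -0.85. In complex IV it was 2.01 for Cox6b2, 0.43 for Cox7a2l, -0.93 for Ndufa4, -0.75 for Cox6c and -0.62 for Cox5b. In complex V it was -0.83 for Atp5c1, -0.85 for Atp5j2 and -0.78 for Atp5g3. The mitochondrial gene was mt-Nd1, with -0.57.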

How the results depend on the processing

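No tested direction was reversed for a named gene. Of the counts of called members, the following moved by more than 1.5 times. Without a filter on low counts, 4 nuclear members were called for KO against WT at 0 h, 1 nuclear member for the change of the KO effect to 8 h, and 2 mitochondrial members for its change to 24 h. With DESeq2, 1 mitochondrial member was called for KO against WT at 0 h, 3 for WT at 24 h against 0 h and 2 for the change to 24 h. For KO at 8 h against 0 h, 1 mitochondrial member was called with RLE size factors, DESeq2, the CPM filter or library sizes without mitochondrial genes, and for WT at 8 h against 0 h it was 3 with each. With only the 4 libraries of 8 h, 0 nuclear members were called for KO against WT at 8 h.

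The labels do not say that replicate numbers pair the libraries. Over 9428 genes, the differences between replicates correlated at 0.285, 0.344 and 0.040 between the genotypes at 0, 8 and 24 h. Within KO cells the correlations between times were 0.158 to 0.462, within WT cells 0.107 to 0.279, and between genotypes at unlike times -0.237 to 0.239. A replicate block across all groups called 46 nuclear members for KO against WT at 24 h, 2 at 8 h and 1 at 0 h. A replicate block within genotype called 3 mitochondrial members for WT at 8 h against 0 h, 2 nuclear members for the change of the KO effect to 8 h and 2 mitochondrial members for its change to 24 h.

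Leaving out 1 library at a time gave 1 to 7 nuclear and 0 to 0 mitochondrial members for KO against WT at 0 h, 0 to 1 and 0 to 0 at 8 h, and 23 to 48 and 2 to 5 at 24 h. It gave 51 to 68 and 1 to 3 for KO at 8 h, 51 to 70 and 5 to 8 for KO at 24 h, 61 to 71 and 1 to 3 for WT at 8 h, and 74 to 79 and 2 to 6 for WT at 24 h, each against 0 h. For the change of the KO effect it gave 0 to 1 and 0 to 0 at 8 h, and 19 to 50 and 0 to 2 at 24 h. The cause of these changes was not tested. Where a group keeps 1 library, its spread is assumed to be that of the other groups.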

Other observations

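Genes of the mitochondrial genome outside the members gave further values. mt-Rnr1, the small ribosomal RNA of mitochondria, was lower in KO than in WT cells at 24 h by a log2 fold change of -0.81 (adjusted p = 0.000175 in the edgeR fit). It rose by 1.30 in WT cells by 24 h (adjusted p = 4.71e-07) and had 0.07 in KO cells (adjusted p = 0.643), and the KO effect at 24 h differed from that at 0 h by -1.23 (adjusted p = 0.000175). mt-Rnr2, the large ribosomal RNA, had -0.61 for KO against WT at 24 h (adjusted p = 0.136). Ribosomal RNA was depleted before sequencing, so these counts are of what remained, and the part of the depletion in the difference was not tested.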
